A study of Homo sapiens with 12 samples.

Results

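The 7 genes followed here encode inhibitors of growth factor signalling: the Sprouty genes SPRY1, SPRY2 and SPRY4, the SPRED genes SPRED1, SPRED2 and SPRED3, and IL17RD, also called SEF. They were chosen by gene name, with earlier results of these data known. They are 7 of 58575 genes with a read count, and all 7 were among the 17747 genes with enough reads to be tested. The data are RNA-Seq of the established human induced pluripotent stem cell (iPSC) line 201B7, a line reprogrammed from skin fibroblasts, with 12 libraries in 4 culture conditions of 3 libraries each. Cond 1 was the control, kept in the iPSC medium StemFit. Cond 2, labelled low nutrient, was grown in StemFit that had first been heated at 56 °C for 30 min. Cond 3, labelled differentiation, was grown in DMEM with 10% fetal bovine serum (FBS), nonessential amino acids and GlutaMax. Cond 4, labelled physical stimulus, was returned to the control medium after 20 pipetting strokes at passage. All 4 conditions carried the same line, were seeded on laminin-coated plastic and started in the maintenance medium, which holds the ROCK inhibitor Y-27632, and were harvested on Day 5. Heat and time at 56 °C were the only stated change of Cond 2, whereas Cond 3 differed from Cond 1 in base medium and serum together, so their parts cannot be told apart. The heated medium was given from Day 2 and the serum medium on Day 4, so medium and length of exposure cannot be told apart between Cond 2 and Cond 3. The study calls the libraries of a condition technical replicates and elsewhere describes repeats of the whole arrangement, all with 1 line, so p-values measure only the spread between these samples.

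Cells receive fibroblast growth factors (FGFs) and related ligands through receptor tyrosine kinases, which recruit adaptors, load RAS with GTP and start the RAF, MEK and ERK kinase cascade. Sprouty proteins act on this route near the adaptors and RAF, and SPRED proteins bind neurofibromin, the RAS inactivator, and bring it to the membrane. IL17RD is a transmembrane protein that binds FGF receptors and holds back ERK signalling. Several of these genes are themselves switched on by FGF and ERK, so they are described as feedback inhibitors, and human pluripotent cells are grown in media that supply FGF2. Protein and phosphorylated ERK were not measured here.

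The libraries held 16441148 to 21871503 counted reads. The 7 genes had from 102 reads, for SPRED3, to 3179 reads, for SPRY4, in a library, so counting error was largest for SPRED3. The cells were checked against marker lists. The pluripotent list held 12 genes and left out POU5F1, which encodes OCT4. The paper reports lower expression of that gene in the heated medium than in the control, and no change of it in the serum medium. All 12 pluripotent markers were at 1 TPM or more in every condition, TPM being reads per counted gene length scaled to 1 total in all libraries. The 12 markers summed to 8754 to 9027 TPM in Cond 1, 7522 to 8631 in Cond 2 and 8905 to 9639 in Cond 3. Single markers went both ways, with 4 higher and 6 lower in Cond 2 and 6 higher and 4 lower in Cond 3. For single markers of every list, higher and lower mean an edgeR adjusted p under 0.05 against Cond 1. Of all genes tested, 20.9% passed this in Cond 2 and 38.4% in Cond 3, in either direction. NANOG went from 45.9 TPM in Cond 1 to 22.9 in Cond 2 and 10.5 in Cond 3, and TDGF1 from 1299 to 490 and 689. The 6 neuroectoderm markers summed to 111 to 137 TPM in Cond 1, 742 to 1104 in Cond 2, where 5 of 6 were higher, and 241 to 291 in Cond 3, where 3 were higher. Summed fibroblast markers were at 424 to 456 TPM in Cond 1, 265 to 314 in Cond 2 and 585 to 622 in Cond 3, with DCN, LUM and COL3A1, 3 of the 7, under 1 TPM throughout. In Cond 3 COL1A1 and COL1A2 were higher and THY1 was lower, at 48.9 TPM against 141 in Cond 1. Of 5 keratinocyte markers 1 reached 1 TPM, and the 6 mesendoderm markers summed to at most 4.48 TPM in any library. The 6 surface ectoderm markers summed to 21.0 to 24.4 TPM in Cond 1, 33.9 to 47.3 in Cond 2 and 29.6 to 34.4 in Cond 3. Of the 6, 3 were higher in Cond 2 and 2 in Cond 3. Most of the sum was KRT7, at means of 22.2, 30.6 and 30.9 TPM. GATA3 had means of 0.27, 7.46 and 0.18 TPM and TFAP2A of 0.14, 4.25 and 0.69, in the same order. The part of these shifts in the results below was not tested, and in bulk RNA fewer cells of a type and less RNA per cell cannot be told apart.

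The genes lie on different chromosomes, in GRCh38 coordinates with GENCODE release 44 extents. SPRY1 is at chr4:123396795-123403760 on the plus strand, SPRY2 at chr13:80335976-80341126 on the minus strand and SPRY4 at chr5:142310427-142326455 on the minus strand. SPRED1 is at chr15:38252836-38357249 and SPRED3 at chr19:38388421-38399587, both on the plus strand, and SPRED2 is at chr2:65310851-65432637 on the minus strand. IL17RD is at chr3:57089982-57170306 on the minus strand. SPRY4 overlaps SPRY4-AS1 on the other strand. That antisense gene was counted at 1 to 12 reads a library against at least 554 for SPRY4. The library kit keeps strand, but the strand setting of the counting was not given in the sources used here.

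The 250 bases upstream of the outermost RefSeq start are printed for the 3 Sprouty genes and IL17RD, the genes with the largest differences in Cond 3, to show how unlike their starts are. Each is written 5′ to 3′ on the gene's own strand, from GRCh38. Capitals mark the GC box GGGCGG on either strand, the letters bound by SP1-type factors, and in SPRY4 also CCCATTCATA, the longest word that its window repeats 3 times. The windows are chr4:123396545-123396794 for SPRY1, chr13:80341127-80341376 for SPRY2, chr5:142325022-142325271 for SPRY4 and chr3:57170318-57170567 for IL17RD. The SPRY4 window overlaps the first exon of SPRY4-AS1, and 1 longer GENCODE transcript of SPRY4 starts further upstream.
SPRY1: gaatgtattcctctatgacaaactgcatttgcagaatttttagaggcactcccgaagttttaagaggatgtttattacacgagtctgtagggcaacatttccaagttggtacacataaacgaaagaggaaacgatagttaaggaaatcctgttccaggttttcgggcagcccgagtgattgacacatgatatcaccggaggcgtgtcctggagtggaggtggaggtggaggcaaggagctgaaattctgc
SPRY2: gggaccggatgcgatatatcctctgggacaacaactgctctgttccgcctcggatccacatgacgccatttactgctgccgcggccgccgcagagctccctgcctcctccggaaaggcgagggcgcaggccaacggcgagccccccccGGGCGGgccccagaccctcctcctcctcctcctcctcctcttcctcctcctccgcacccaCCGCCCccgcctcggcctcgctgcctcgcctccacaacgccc
SPRY4: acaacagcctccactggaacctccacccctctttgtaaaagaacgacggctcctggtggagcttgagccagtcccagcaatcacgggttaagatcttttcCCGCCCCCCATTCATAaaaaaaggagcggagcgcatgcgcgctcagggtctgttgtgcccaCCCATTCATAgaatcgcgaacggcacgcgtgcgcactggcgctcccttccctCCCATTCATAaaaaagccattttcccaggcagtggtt
IL17RD: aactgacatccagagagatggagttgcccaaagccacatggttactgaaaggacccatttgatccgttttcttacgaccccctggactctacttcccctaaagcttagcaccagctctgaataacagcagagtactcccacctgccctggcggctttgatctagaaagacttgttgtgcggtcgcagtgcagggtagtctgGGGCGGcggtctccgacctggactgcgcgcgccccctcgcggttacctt

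The windows differed in base composition. SPRY2 had 70.4% G and C with 23 CpG dinucleotides, and SPRY1 had 45.6% with 8. SPRY4 had 55.6% with 15 CpG, and IL17RD had 56.0% with 13, beside a median of 58.0% over 35116 RefSeq windows of the same length. SPRY2 held 2 GC boxes, 102 and 42 bases upstream of the start. SPRY4 held 1 at 150 bases and IL17RD 1 at 49 bases, and SPRY1 held none. The GC box occurs in 42.6% of all windows. The SPRY4 window carried the word CCCATTCATA 3 times, at 144, 89 and 37 bases upstream, each in the same orientation. The word was chosen from this sequence after it was read, and 0.0399% of all windows hold it on either strand. The 4 windows held no match to the ETS-type word CGGAAG, present in 16.5% of all windows, or the AP-1 word TGANTCA, in 6.57%. They also held none to the CRE word TGACGTCA, in 1.65%, or the E-box CACGTG, in 6.34%. The shorter core GGAA, shared by ETS sites, does occur, as in the SPRY1 and SPRY2 windows. The letters are a description and say nothing of which factors act on these genes.

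Cond 3 asked what the serum medium did to these genes, and 6 of the 7 fell against Cond 1. SPRY4 fell 5.18-fold, SPRY2 2.41-fold, SPRY1 1.96-fold and IL17RD 1.77-fold, while SPRED3 and SPRED1 fell less and SPRED2 did not pass the test. The test was edgeR's quasi-likelihood test on counts with Benjamini-Hochberg adjustment over the 17747 genes, and a call means an adjusted p under 0.05. Of all genes tested, 18.8% were called lower in this comparison. With the added demand of a fold above 2, the fall of SPRY4 and SPRY2 passed, beside 3.31% of all genes. In Cond 2, the heated medium, 4 of the 7 were called lower, SPRY4, SPRY1, IL17RD and SPRED2, beside 10.1% of all genes. None of the 4 fell more than 2-fold, as 2.5% of all genes did. After pipetting, in Cond 4, none was called, beside 0.0282% of all genes. The log2 fold changes of the 7 had a median of -0.82 for Cond 3, -0.28 for Cond 2 and 0.017 for Cond 4, and those of all genes medians of -0.0064, 1.8e-04 and 3.3e-04. These 3 comparisons share the Cond 1 libraries.

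**Figure D1:**
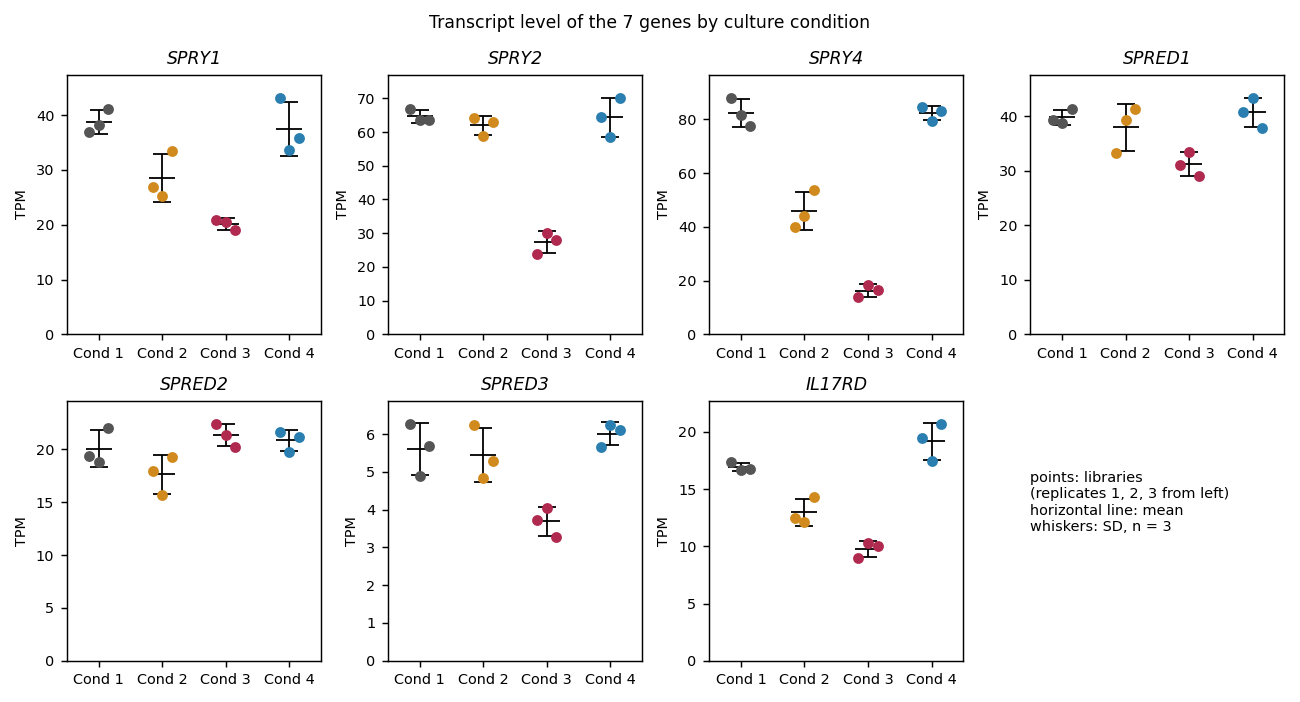
TPM (vertical axes, each from 0) of the 7 genes in each of the 12 libraries, by condition. Points are libraries, the line is the mean and whiskers are the SD of 3 libraries. SPRY4 steps from a mean of 82.5 in Cond 1 to 45.9 in Cond 2 and 16.3 in Cond 3, whereas SPRED2 stays between 15.7 and 22.4 in all libraries.

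SPRY4, which binds the adaptors and blocks the activation of RAS and RAF, was the most abundant of the 7 in the control and the one that fell most. Its TPM, a level per counted gene length, was 87.9, 81.8 and 77.7 in the Cond 1 libraries. The values were 39.8, 44.1 and 53.7 in Cond 2 and 13.8, 18.6 and 16.4 in Cond 3. The 3 conditions did not overlap at any library, and the Cond 3 libraries all lay under the lowest of Cond 2. Cond 4 gave 84.5, 79.6 and 83.2, within the range of Cond 1. The log2 fold change was -2.37 (SE 0.0959, 95% interval -2.57 to -2.17, edgeR adjusted p = 1.96e-14) in Cond 3. In Cond 2 it was -0.94 (SE 0.0890, -1.12 to -0.75, edgeR adjusted p = 4.11e-08). Without Cond 2 replicate 3, the highest of its group, the Cond 2 value was -1.05 and passed a 2-fold change.

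SPRY2, the paralog best known for its interplay with the ubiquitin ligase CBL and for control of FGF signalling, fell in Cond 3 but not detectably in Cond 2. The control libraries stood at 66.9, 63.5 and 63.4 TPM. Cond 2 libraries were at 64.3, 58.7 and 62.9 and Cond 3 libraries at 24.0, 30.2 and 28.0. Cond 2 overlapped the control and Cond 3 lay far below both. Cond 4 libraries spread widest, at 64.5, 58.5 and 70.0 TPM. The log2 fold change in Cond 3 was -1.27 (SE 0.0918, edgeR adjusted p = 2.78e-10). In Cond 2 it was -0.15, with a 95% interval from -0.33 to 0.035 and an edgeR adjusted p of 0.271, so a fall of up to that lower bound is within the interval.

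SPRY1, the Sprouty gene with a known part in limiting RET signalling in the kidney, fell in both altered media. Its control libraries were at 36.9, 38.1 and 41.1 TPM. Those of Cond 2 were at 26.9, 25.2 and 33.5 and those of Cond 3 at 21.0, 20.5 and 19.0. Each altered medium lay below the control in every library, and Cond 3 lay below Cond 2. In Cond 4 the values were 43.1, 33.7 and 35.7, on both sides of the control. The log2 fold change was -0.97 (SE 0.109, edgeR adjusted p = 2.33e-07) in Cond 3 and -0.53 (SE 0.107, edgeR adjusted p = 7.16e-04) in Cond 2. The Cond 3 fall was 1.96-fold, just under a 2-fold change, and without Cond 1 replicate 1 its log2 value was -1.01.

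SPRED1, whose loss of function causes Legius syndrome in people, was the most abundant SPRED gene. It stood at 39.3, 38.8 and 41.4 TPM in Cond 1. The Cond 2 libraries were at 33.2, 39.2 and 41.4 and the Cond 3 libraries at 31.1, 33.5 and 29.1. Cond 2 overlapped the control, and all Cond 3 libraries were lower than it. The log2 fold change was -0.38 (SE 0.0759, edgeR adjusted p = 3.70e-04) in Cond 3 and -0.16 (95% interval -0.32 to -0.0030, edgeR adjusted p = 0.149) in Cond 2. The Cond 4 libraries, at 40.8, 43.3 and 37.9 TPM, overlapped the control.

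SPRED2 was the exception in Cond 3, with no call in either direction. Its libraries read 19.4, 18.8 and 22.0 TPM in Cond 1 and 22.4, 21.4 and 20.3 in Cond 3, which overlapped. In Cond 3 the log2 fold change was 0.058 (95% interval -0.14 to 0.26, edgeR adjusted p = 0.684), so a fall as large as that of SPRED1 lay outside its interval. Cond 2 libraries were at 17.9, 15.7 and 19.3, overlapping the control. Its log2 fold change there was -0.28 (SE 0.0987, edgeR adjusted p = 0.0497), just past the threshold, and limma on log2(TPM + 1) gave -0.18 with an adjusted p of 0.193. Over all alternatives of that value the adjusted p ran from 0.0329 to 0.257. The call was lost without Cond 1 replicate 1, where the value was -0.31, without Cond 1 replicate 3, where it was -0.19, and without Cond 2 replicate 2, where it was -0.19.

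SPRED3, the SPRED protein that lacks a working KIT-binding domain, was the least abundant of the 7. It read 6.25, 4.88 and 5.67 TPM in Cond 1, 6.24, 4.84 and 5.27 in Cond 2 and 3.73, 4.05 and 3.28 in Cond 3. Cond 1 and Cond 2 covered nearly the same range, and Cond 3 lay below both. Its log2 fold change in Cond 3 was -0.63 (SE 0.162, 95% interval -0.97 to -0.30, edgeR adjusted p = 0.00332). In Cond 2 it was -0.13 with a wide interval, -0.45 to 0.20, at 135 to 202 reads a library.

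IL17RD, whose transmembrane protein binds FGF receptors, followed the same order as SPRY1 and SPRY4 across the 2 altered media. Its control libraries were close together at 17.4, 16.7 and 16.7 TPM. Cond 2 gave 12.4, 12.2 and 14.3, and Cond 3 gave 9.0, 10.3 and 10.0. No library of Cond 2 reached the control and no library of Cond 3 reached Cond 2. The log2 fold change was -0.82 (SE 0.0902, edgeR adjusted p = 1.81e-07) in Cond 3 and -0.47 (SE 0.0890, edgeR adjusted p = 3.68e-04) in Cond 2.

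In Cond 3 all 3 libraries lay below all 3 of Cond 1 for 6 of the 7 genes, beside 22.0% of all genes tested. In Cond 2 this held for 3, SPRY1, SPRY4 and IL17RD, beside 11.2%. With 3 libraries against 3, a two-sided exact permutation test of mean TPM cannot go below p = 0.1, and each of these genes reached that value. Within Cond 2, replicate 3 was the highest library for 5 of the 7 genes, the exceptions being SPRY2 and SPRED3. The coefficient of variation of TPM over 3 libraries had a median over the 7 genes of 11.2% in Cond 2. The medians of Cond 1, Cond 3 and Cond 4 were 5.60%, 7.11% and 6.65%.

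**Figure D2:**
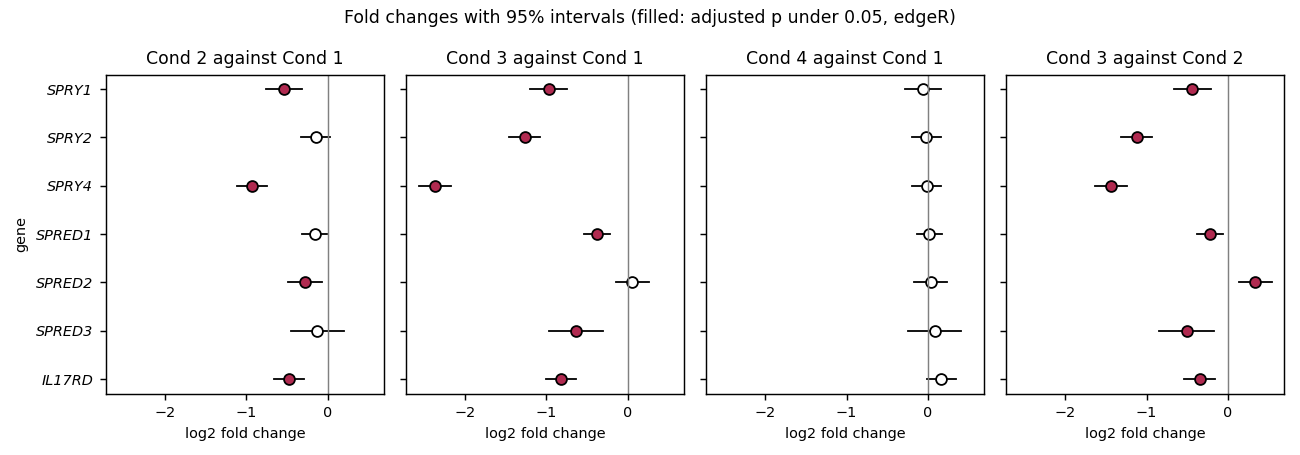
Log2 fold changes (horizontal axis) of the 7 genes in 4 comparisons, with 95% intervals from the edgeR fit over 12 libraries. Filled points passed an adjusted p under 0.05. SPRY4 lies furthest to the left in Cond 2 (-0.94) and in Cond 3 (-2.37), and in Cond 4 every interval includes 0.

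Pipetting left the 7 genes without a detectable change. The edgeR test called 0 of 7 in Cond 4, none of them had an unadjusted p under 0.05, and DESeq2 and limma on log2(TPM + 1) also gave 0 by either measure. Of the log2 fold changes, 6 lay between -0.061 and 0.086. For SPRY4 the 95% interval ran from -0.19 to 0.17, and for SPRY2 from -0.20 to 0.16. IL17RD had the largest difference, 0.17 (95% interval -0.015 to 0.35, edgeR adjusted p = 0.813). Its 3 libraries, at 19.5, 17.4 and 20.7 TPM, all lay above the control, the lowest of them by a narrow margin, and 6.75% of all genes tested lay wholly above the control in this comparison. Over all genes edgeR called 5 in Cond 4, with 1102 at an unadjusted p under 0.05.

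Cond 3 against Cond 2 asked whether the altered media differed from each other, and all 7 genes passed the test, beside 38.2% of all genes. In the serum medium 6 were lower, beside 19.2% of all genes, and SPRED2 was higher, beside 19.0%. SPRY4 was lower by a further 2.71-fold (log2 -1.44, SE 0.0961, edgeR adjusted p = 7.08e-11) and SPRY2 by 2.18-fold (log2 -1.12, SE 0.0919, edgeR adjusted p = 1.96e-09). These 2 passed the 2-fold demand, beside 3.01% of all genes. SPRED3, at a log2 value of -0.51, SPRY1 at -0.44, IL17RD at -0.35 and SPRED1 at -0.22 were lower by less than 2-fold, with edgeR adjusted p of 0.0163, 0.00281, 0.00402 and 0.0258. SPRED2 was 1.26-fold higher (log2 0.33, SE 0.0982, edgeR adjusted p = 0.00934). Read by library, 5 genes lay wholly below Cond 2, beside 27.3% of all genes, and SPRED2 lay wholly above it, beside 20.3%. SPRED1 overlapped, and its adjusted p ran from 0.0044 to 0.135 over the alternatives, missing the threshold without Cond 2 replicate 2 or 3 or Cond 3 replicate 1 or 3, at log2 values of -0.20, -0.16, -0.21 and -0.17. The call of SPRED3 was lost without Cond 2 replicate 1 (-0.38) or Cond 3 replicate 3 (-0.43), and that of SPRED2 without Cond 2 replicate 2 (0.25).

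Since TPM is per counted gene length, the levels of the 7 genes can be set side by side, as far as that length stands for the transcripts present. In the control the order was SPRY4, SPRY2, SPRED1, SPRY1, SPRED2, IL17RD and SPRED3, with the libraries of SPRED1 and SPRY1 the only neighbours to overlap. In Cond 2 SPRY2 stood first, and SPRY4 overlapped SPRED1, which overlapped SPRY1. In Cond 3 SPRED1 and SPRY2 led and overlapped, SPRED2 and SPRY1 followed and overlapped, and SPRY4, first in the control, came after them. SPRED3 was lowest in all 4 conditions.

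The SPRY1, SPRY2 and SPRY4 values together summed to 186 ± 5.16 TPM (SD, n = 3) in Cond 1 and 184 ± 10.9 in Cond 4. The sum was 136 ± 11.9 in the heated and 63.8 ± 5.30 in the serum medium. The SPRED sum went from 65.5 ± 3.36 in Cond 1 to 61.0 ± 4.43 in the heated and 56.3 ± 3.27 in the serum medium, with 67.5 ± 2.09 after pipetting. The ratio of the sums was 2.95, 2.94 and 2.64 in the Cond 1 libraries. It was 2.28, 2.14 and 2.27 in Cond 2 and 1.03, 1.17 and 1.20 in Cond 3, with no overlap between these conditions. Cond 4 gave 2.82, 2.48 and 2.90, the middle value below the control range.

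**Figure D3:**
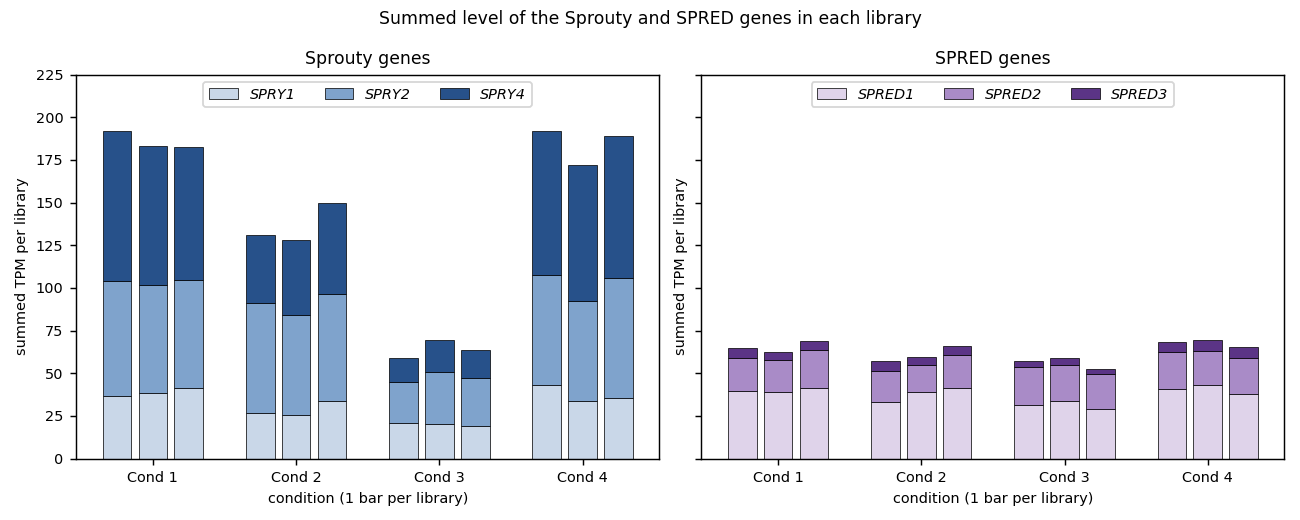
Summed TPM of the Sprouty genes (left) and of the SPRED genes (right), 1 stacked bar per library, on the same axis from 0. The Sprouty sum is near 186 in Cond 1 and 63.8 in Cond 3, and the SPRED sum is 65.5 and 56.3.

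The Sprouty genes changed unequally. SPRY4 supplied 45.9%, 44.6% and 42.6% of the Sprouty sum in the Cond 1 libraries, 30.4%, 34.4% and 35.8% in Cond 2 and 23.5%, 26.8% and 25.9% in Cond 3. SPRY2 supplied 34.8% ± 0.139 in Cond 1, 45.6% ± 3.60 in Cond 2 and 42.9% ± 1.77 in Cond 3, so it was the leading Sprouty transcript in both altered media. SPRY1 held 20.9% ± 1.65 in Cond 1 and 20.8% ± 1.33 in Cond 2, and 31.7% ± 3.43 in Cond 3. Among the SPRED genes SPRED2 went from 30.6% ± 1.12 in Cond 1 to 38.0% ± 1.48 in Cond 3, while SPRED1 went from 60.8% ± 1.11 to 55.5% ± 1.25 and SPRED3 from 8.55% ± 0.957 to 6.54% ± 0.320. All 6 shares had separate libraries between Cond 1 and Cond 3, and in Cond 2 only those of SPRY4 and SPRY2 did. The exact two-sided permutation p for each of these was 0.1, the smallest possible with 3 against 3, and 0.225 after adjustment over 18 share tests. The shares of a family make up the whole in each library, so a lower SPRY4 share raises the others and the tests are not independent. Mean SPRY2 TPM was 61.9 in Cond 2 against 64.6 in Cond 1, although its share was larger. In Cond 4 the largest difference was -0.63 percentage points, for SPRED1, and each share overlapped the control.

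SPRY4 and SPRY2 had condition means that spanned more than 1 on the log2 scale, 2.38 and 1.27. The genes with the most similar pattern over the 4 condition means were looked up among 11365 genes of at least 5 CPM (reads scaled to library size) on average, by the root mean square difference of log2 CPM after each gene was centred on its own mean. For SPRY4 the closest were CDKN1A, encoding a cyclin-dependent kinase inhibitor, at 0.094, NANOG, a pluripotency transcription factor, at 0.13, and NFE2L3, a leucine zipper factor, at 0.15. For SPRY2 they were the rhomboid protease gene RHBDD1 at 0.026, the ETS factor gene ELK4 at 0.032 and the zinc finger gene ZNF382 at 0.032. These are likenesses over 4 means, chosen from many genes, and carry no test.

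**Figure D4:**
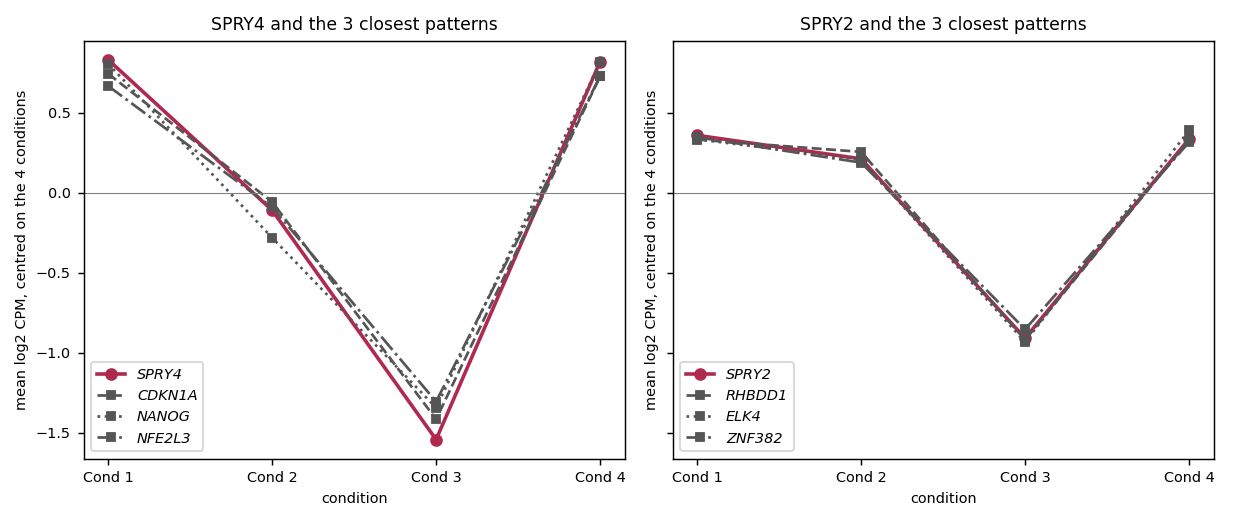
Mean log2 CPM per condition, centred on the 4 conditions (vertical axis), of SPRY4 (left) and SPRY2 (right) with the 3 genes of closest pattern. SPRY4 reaches -0.11 in Cond 2 and -1.54 in Cond 3, and SPRY2 0.21 and -0.91.

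The other genes of the pathway were taken from a list of 94, of which 86 were tested. The lists were drawn up by role with earlier results of these data known. Their shares beside those of all genes are therefore a description, with no test of the lists. Of these, 28 fell and 24 rose in Cond 3, 60.5% of those tested beside 38.4% of all genes, and in Cond 2 16 fell and 26 rose, 48.8% beside 20.9%. In Cond 4 edgeR called 0 of 86, with 11 at an unadjusted p under 0.05, and DESeq2 and limma on log2(TPM + 1) also called 0. Between Cond 3 and Cond 2, 41 were lower and 13 higher in Cond 3, 62.8% of those tested beside 38.2% of all genes.

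Transcripts that ERK signalling is known to induce mostly fell in Cond 3. Of 15 tested, 12 fell, beside 18.8% of all genes, and 1 rose, with a median log2 fold change of -1.08. The ETS factor genes ETV5 and ETV4 fell, with log2 fold changes of -3.90 and -1.92 (edgeR adjusted p = 1.38e-13 and 6.22e-13), as did the early response gene EGR3 at -2.40 (4.93e-08). EPHA4, an ephrin receptor gene, rose by 0.71 (2.13e-04). In Cond 2 the same list was split, with 4 falling and 4 rising, 53.3% of those tested beside 20.9% of all genes. Its median there was 0.10. ETV5, ETV4 and MYC fell there, at -1.34, -0.76 and -0.63, while EPHA4 rose by 3.04, EGR3 by 0.81 and PHLDA1 by 0.25. Against Cond 2, 14 of 15 were lower in Cond 3, beside 19.2% of all genes.

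The list of other feedback inhibitors was mixed, and it also held FLRT3, which is not established as an inhibitor. In Cond 3, 4 of 11 fell and 4 rose, 72.7% of the list beside 38.4% of all genes. The ERK phosphatase gene DUSP6 fell by 5.29 on the log2 scale (SE 0.175, edgeR adjusted p = 7.12e-16), from a mean of 71.3 to 1.84 TPM, more than any of the 7 inhibitors. DUSP4 and DUSP5, both nuclear phosphatases, fell to a lesser degree, at -1.93 and -1.47. DUSP9 rose by 1.01, FLRT3, a membrane protein that binds FGF receptors, by 0.79 and LRIG1, a negative regulator of ERBB receptors, by 0.49. In Cond 2, 2 fell and 4 rose, 54.5% beside 20.9%, with DUSP6 at -1.11, FLRT3 at 3.59 (edgeR adjusted p = 6.85e-12), DUSP4 at 0.53 and LRIG1 at 0.29. SPRY3, the fourth Sprouty gene, stood at a low 3.95 ± 0.541 TPM in Cond 1 and fell by 0.52 in Cond 2 (edgeR adjusted p = 0.0411), with overlapping libraries. That call was lost without Cond 1 replicate 1 (-0.54), Cond 1 replicate 2 (-0.41) or Cond 2 replicate 3 (-0.34). Its adjusted p ran from 0.0261 to 0.199 with 1 library left out. In Cond 3 SPRY3 was not called against Cond 1 (log2 -0.14, 95% interval -0.50 to 0.22, edgeR adjusted p = 0.561), with overlapping libraries. Against Cond 2 its Cond 3 value was 0.37 (edgeR adjusted p = 0.105), also with overlap.

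**Figure D5:**
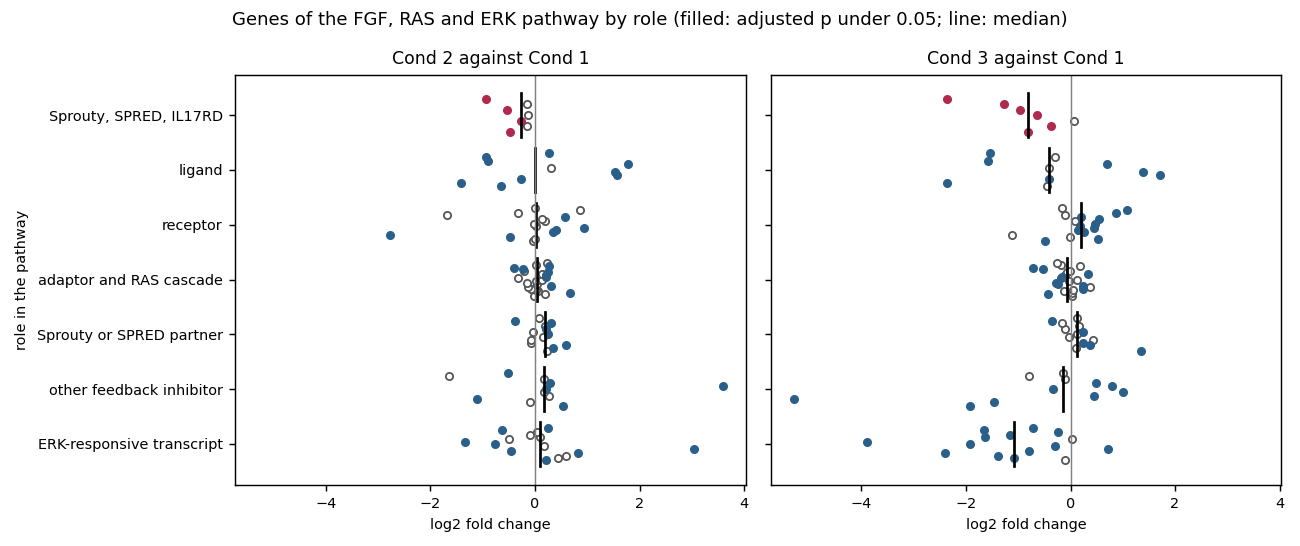
Log2 fold changes (horizontal axis) of the 7 inhibitors and of the other tested pathway genes by role, in Cond 2 (left) and Cond 3 (right) against Cond 1. Filled points passed an adjusted p under 0.05 and the line is the median of a row. The 7 inhibitors have medians of -0.28 and -0.82 and the ERK-responsive transcripts 0.10 and -1.08. A gene with 2 roles is drawn in both rows.

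Upstream of the inhibitors the shifts were of both signs. Of 10 ligand genes tested, 4 fell and 3 rose in Cond 3, 70.0% beside 38.4% of all genes. FGF19, a secreted FGF, fell by 2.36 on the log2 scale, PDGFA fell by 1.58 and VEGFA fell by 1.54, and FGF4, FGF8 and NRG1 rose by 1.70, 1.38 and 0.70 from means of 0.579, 1.95 and 0.366 TPM. In Cond 2, 5 fell and 4 rose, 90.0% beside 20.9%. The largest rises there were those of NRG1, a ligand of ERBB receptors, at 1.78 (edgeR adjusted p = 7.55e-06), FGF4 at 1.57 and FGF8 at 1.53. The largest falls were those of FGF19 at -1.42, TGFA, a ligand of EGFR, at -0.95 and PDGFA at -0.90. Among 16 receptor genes, 10 rose and 1 fell in Cond 3, 68.8% beside 38.4% of all genes, with PDGFRA at 1.09 (edgeR adjusted p = 0.0107) from a mean of 0.450 TPM, MET at 0.87, INSR, the insulin receptor, at 0.54 and EGFR at -0.49. In Cond 2, 4 rose and 2 fell, 37.5% beside 20.9%. FGFR3 rose by 0.93 from 151 to 305 TPM (edgeR adjusted p = 1.97e-08), KIT, the stem cell factor receptor, rose by 0.58 and FGFR2 by 0.40. ERBB4, at a mean of 0.298 TPM in Cond 1, and ERBB3 fell, at -2.77 and -0.48.

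Of the 23 adaptor, RAS and kinase genes, 6 fell and 3 rose in Cond 3 and 2 fell and 6 rose in Cond 2, none past 2-fold. In Cond 3 the 39.1% called were close to the 38.4% of all genes, and in Cond 2 34.8% stood beside 20.9%. The adaptor gene SHC1 fell in both, at -0.72 in Cond 3 and -0.41 in Cond 2, and so did RRAS2, a RAS-related GTPase, at -0.53 and -0.23. FRS2, the adaptor that couples FGF receptors to the cascade, rose by 0.67 in Cond 2 and SHOC2, a scaffold protein of the cascade, by 0.27. In Cond 3 GRB2 rose by 0.23 and BRAF fell by 0.43. Among 13 genes for proteins that bind or act on Sprouty or SPRED proteins, 4 rose and 1 fell in Cond 3 and 5 rose and 1 fell in Cond 2. The 38.5% called in Cond 3 were close to the 38.4% of all genes, and in Cond 2 46.2% stood beside 20.9%. CAV1, encoding the membrane protein caveolin, rose by 1.35 in Cond 3 and CBLB by 0.38. The ubiquitin ligase genes CBLB and CBL rose by 0.58 and 0.35 in Cond 2, and RASA2, a RAS GTPase-activating protein gene, by 0.30. SIAH2, a ligase that targets Sprouty proteins, fell in both, at -0.36 in Cond 3 and -0.38 in Cond 2 (edgeR adjusted p = 0.023 and 0.026).

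Leaving out 1 library ended some of these calls and turned no sign. In Cond 2 this held for 9 of the 31 genes the naming rule took, SPRY3 among them, with log2 fold changes then as follows. DUSP4 was 0.43 without Cond 2 replicate 1. ERBB4 was -2.33 without Cond 1 replicate 1. FGF4 was 1.42 without Cond 1 replicate 1, 1.45 without Cond 1 replicate 2 and 1.44 without Cond 2 replicate 3. FGF8 was 1.39 without Cond 1 replicate 2, 1.24 without Cond 1 replicate 3 and 1.39 without Cond 2 replicate 2. PHLDA1 was 0.18 without Cond 1 replicate 1, 0.28 without Cond 1 replicate 3, 0.29 without Cond 2 replicate 2 and 0.18 without Cond 2 replicate 3. RASA2 was 0.26 without Cond 1 replicate 1. SHOC2 was 0.21 without Cond 1 replicate 1, 0.30 without Cond 1 replicate 3, 0.28 without Cond 2 replicate 2 and 0.23 without Cond 2 replicate 3. SIAH2 was -0.34 without Cond 1 replicate 1, -0.40 without Cond 1 replicate 3, -0.32 without Cond 2 replicate 1 and -0.41 without Cond 2 replicate 2. In Cond 3 it held for 8 of 29. DUSP9 was 0.88 without Cond 1 replicate 1 and 0.76 without Cond 3 replicate 1. EGFR was -0.42 without Cond 1 replicate 1 and -0.42 without Cond 1 replicate 3. FGF4 was 1.21 without Cond 3 replicate 3. FGF8 was 1.24 without Cond 1 replicate 2, 1.09 without Cond 1 replicate 3 and 1.22 without Cond 3 replicate 1. GRB2 was 0.17 without Cond 1 replicate 1. NRG1 was 0.49 without Cond 1 replicate 1, 0.63 without Cond 3 replicate 2 and 0.64 without Cond 3 replicate 3. PDGFRA was 0.92 without Cond 1 replicate 3. SIAH2 was -0.31 without Cond 1 replicate 1 and -0.23 without Cond 3 replicate 2.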

How the data were processed

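Libraries of 201B7 cells were made with a directional poly(A) kit. According to the methods and the submitters' processing notes, reads were converted with bcl2fastq 2.20.0.422, trimmed with cutadapt 4.1 and fastp 0.20.1, aligned to GRCh38 with HISAT2 2.1.0 and counted with featureCounts, whose strand setting and handling of multiple matches are not given in the sources used here. The authors deposited unnormalized whole-number read counts for each gene. The authors also deposited TPM values for 60617 genes, and 2042 of these are missing from the count table used here. For genes in both tables TPM was proportional to count per gene length within a library, with a largest relative deviation of 1.79e-14. Of 58580 lines in the count table, 5 held no whole gene row and were left out. Multiple matches could lower the counts of near-identical genes.

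Counts were scaled by TMM, filtered by filterByExpr and tested with edgeR 4.0.16 (R 4.3.3) in 1 quasi-likelihood fit over 12 libraries, with standard errors from the log2 fold change and its F statistic. Alternatives were DESeq2 1.42.0, upper-quartile scaling, no filter, limma 3.58.1 on log2(TPM + 1) and log2(TPM + 0.1), the 6 libraries compared alone, a replicate block, a threshold of 0.01 and leaving out each library. In data simulated on Cond 3 against Cond 1, edgeR recovered 182 of 200 changed genes among 17338, with 12 false calls. Of those recovered, 54 had been changed 1.5-fold, 62 2-fold and 66 4-fold. The 200 were drawn from well-counted genes and were a far smaller share than the 38.4% called in the data. These rates may not carry over to the real comparison. Replicates differed by more than counting noise, with a chi-square per gene of 4.18 to 10.2 over 12 pairs. RefSeq promoter windows matched 3 of the 4 genes shown, and that of SPRY4 was read from the genome at its RefSeq start. The genes and lists were chosen with earlier results of these data known. All 7 genes were named, and of each role list the 3 largest rises and falls past adjusted p 0.05 in Cond 2 and in Cond 3, with fewer where fewer passed. Some genes under this rule are not reported here. Of the listed genes, 4 had no count row and 4 were too low to be tested.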

Additional observations from a re-analysis of the deposited data

How the results depend on the processing

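Of 196 values of the 7 genes under other settings, 189 kept their direction and their side of the threshold, as did 150 of 168 with 1 library left out. The fall of SPRED2 in Cond 2 no longer passed with no filter (log2 -0.28, adjusted p = 0.0551), with limma on log2(TPM + 1) (-0.18, 0.193) or log2(TPM + 0.1) (-0.19, 0.192), or in the 6 libraries alone (-0.28, 0.0894). Its value ran from -0.34 to -0.19 with 1 library left out. SPRED1 in Cond 3 against Cond 2 was -0.19 (0.0605) with upper-quartile scaling. With 1 library left out, that comparison ran from -0.29 to -0.16 for SPRED1, 0.25 to 0.39 for SPRED2 and -0.60 to -0.38 for SPRED3. In Cond 4, where no value was called, SPRY4 was 3.7e-04 and 3.9e-04 with the 2 limma settings. Leaving out 1 library gave -0.17 to 0.0070 for SPRY1, -0.085 to 0.042 for SPRY2, -0.046 to 0.027 for SPRY4, -0.034 to 0.066 for SPRED1, -0.0092 to 0.12 for SPRED2 and -0.0051 to 0.16 for SPRED3. The count of the 7 past a 2-fold fall in Cond 2 was 0 to 1, and in Cond 3 2 to 3. Without a filter 1 other pathway gene, FOS, was called in Cond 4. With read counts not divided by length the SPRY4 share differed by -21.2 percentage points in Cond 3, against -19.0. The cause of these changes was not tested.

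Samples with the same replicate number did not deviate together (correlations of -0.013 to 0.038), so the numbers were not taken to pair them. A replicate block called 3750 genes against 3701 in Cond 2, 6854 against 6811 in Cond 3 and 6780 against 6777 in Cond 3 against Cond 2, gave SPRY4 -0.94 for Cond 2 with -2.38 for Cond 3, and altered no call of the 7 genes. TPM, used above for library overlaps and sums, carries no TMM scaling. Over all genes the median log2 fold change in Cond 2 was 1.8e-04 by edgeR and 0.069 by limma on log2(TPM + 1). SPRY2 and SPRED1 in Cond 2 were -0.15 and -0.16 by edgeR, and -0.060 and -0.074 by that limma setting. Of the calls over all genes in Cond 2, 51.6% were higher by edgeR and 70.1% by limma on log2(TPM + 1). In Cond 4 this was 80.0% of 5 calls by edgeR, 52.9% of 17 by DESeq2 and 100% of 2 by limma. SPRED3, with 102 to 202 reads a library, had the widest intervals of the 7 genes.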
